A study of Homo sapiens with 6 samples.

Results

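The genes described here are 9 coagulation and fibrinolysis genes, out of 22481 in the count table, in 143B cells with and without celastrol. They are THBD, PLAT, PLAU, PLAUR, SERPINE2, F3, TFPI, TFPI2 and F2R. They were chosen by name, with their difference between celastrol and control wells already in view, so that difference is described below with its error, and no p-value is given for them. All 9 passed the filter on low counts, as did 15387 genes in all. 143B is an established human osteosarcoma line, and celastrol is a triterpene from the plant Tripterygium wilfordii. A 6-well plate was cultured for 24 h, and 3 wells taken at random served as controls for a further 24 h while the other 3 had celastrol for those 24 h. The labels state neither the dose nor a vehicle for the control wells, and nothing else is said to differ between the groups. All 6 wells shared 1 plate and 1 line, so errors and p-values measure the spread between wells, which may be technical.

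Blood clotting is started by tissue factor, a membrane protein that binds factor VII and is held in check by tissue factor pathway inhibitor. It ends in thrombin, which cleaves fibrinogen and signals through the receptor PAR1. Thrombomodulin binds thrombin and redirects it to activate protein C, an anticoagulant. Fibrin is dissolved by plasmin, which tissue-type and urokinase-type activators release from plasminogen, while serpins such as protease nexin-1 block the activators. Tumour cells are known to make many of these proteins, and the urokinase system is known for its part in degrading matrix around them.

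Libraries held 38408143 to 39453778 counts and 18778 to 18948 detected genes. On the first principal component, which held 62.6% of the variance, the wells closest to the opposite group were celastrol replicate 2 and control replicate 1. In CPM, which are counts as a share of the library total with the TMM correction for library make-up, celastrol replicate 2 was the celastrol well nearest the controls for 7 of the 9 genes. Of the osteoblast lineage markers, SPARC, SPP1, VIM and RUNX2 were expressed, while COL1A2, SP7 and BGLAP had at most 6 counts in any well. COL1A1 had 1.18 to 1.69 FPKM (counts scaled by gene length and library total) in control and 1.93 to 2.52 FPKM in celastrol wells, and ALPL 0.871 to 1.24 and 0.344 to 0.646 FPKM. RUNX2 was lower with celastrol, at 5.16 to 6.04 FPKM in control and 2.99 to 3.26 FPKM in celastrol wells. VIM was lower too, at 1502 to 1634 and 1179 to 1219 FPKM, while SPARC and SPP1 overlapped between the groups. The sum over the 9 markers of this list, mostly VIM, was 1637 to 1754 FPKM in control and 1317 to 1351 FPKM in celastrol wells. Endothelial markers matter here because thrombomodulin is best known from endothelium. Of 7 such genes, 5 stayed under 1 FPKM in every well, among them PECAM1 (1 to 11 counts) and CDH5 (at most 1 count). ERG reached 1.11 FPKM, and TIE1 had 15.5 to 17.7 FPKM in control and 10.0 to 12.4 FPKM in celastrol wells. The summed level of the 7 ranged from 16.6 to 18.7 FPKM in control and from 11.2 to 13.4 FPKM in celastrol wells. The sum of the leukocyte list was also lower, at 112 to 118 FPKM in control and 84.0 to 98.4 FPKM in celastrol wells, nearly all of it CD68. The defining gene PTPRC had at most 6 counts, and CD14 had 2 to 10 counts in control and 8 to 25 in celastrol wells. The epithelial list, mainly KRT8 and KRT18, summed to 808 to 827 and 770 to 822 FPKM, with CDH1 at most at 1 count. The members of this list went different ways. EPCAM was higher with celastrol, at 3.65 to 4.16 FPKM in control and 4.39 to 4.69 FPKM in celastrol wells. The more abundant KRT8 was lower, at 178 to 182 FPKM in control and 153 to 161 FPKM in celastrol wells, and KRT18 overlapped between the groups. The part of these lists in the results was not tested. In bulk RNA, fewer cells that express a gene and less of its RNA per cell cannot be told apart.

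Thrombomodulin and tissue plasminogen activator were about an order of magnitude lower in the celastrol wells, and most of the other genes differed by far less. By the fitted model, THBD was 11.4-fold and PLAT 9.97-fold lower, TFPI2 was 2.98-fold lower, and PLAU, F3, PLAUR, TFPI and F2R were between 1.27-fold and 1.81-fold lower. SERPINE2, which encodes protease nexin-1, differed in the other direction and was 1.42-fold higher. At an adjusted p under 0.05 in edgeR's quasi-likelihood test, 8 of the 9 were called lower and 1 higher, against 24.8% lower and 23.6% higher over all genes tested. In CPM, every celastrol well lay below every control well for those 8, and above for SERPINE2. The same held for 28.6% (below) and 28.4% (above) of all genes. Since the genes were selected on this contrast, nothing is read from these counts.

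**Figure D1:**
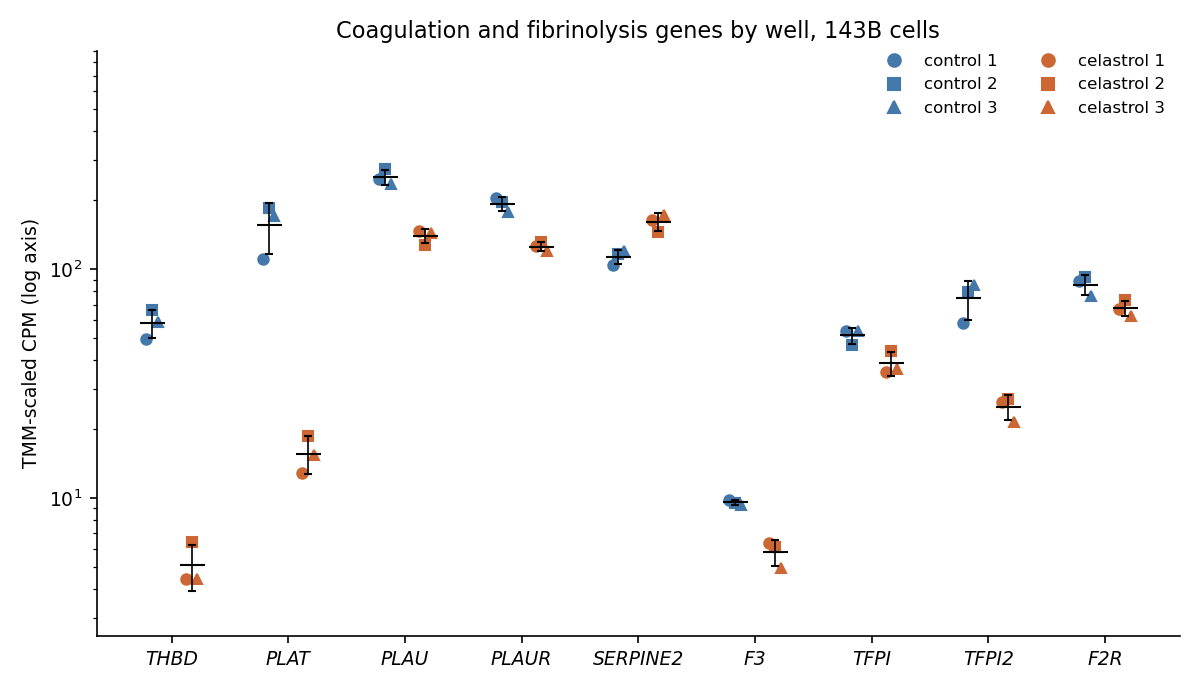
TMM-scaled CPM on a log axis for each of the 9 genes, with 1 symbol per well (circle, square and triangle for replicates 1, 2 and 3), control in blue and celastrol in orange. Black bars are the mean ± SD of 3 wells. THBD and PLAT show the widest gaps between the groups, TFPI and F2R the narrowest, and SERPINE2 alone is higher with celastrol.

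Tissue factor itself was the least abundant of the 9 in control wells. F3 (NCBI gene 2152, chromosome 1, 94529173 to 94541759 in RefSeq on GRCh38.p14) had 377, 361 and 360 counts in control replicates 1, 2 and 3 and 256, 241 and 195 in celastrol replicates 1, 2 and 3. All celastrol wells were lower, and the groups did not overlap. In CPM this was 9.55 ± 0.227 in control and 5.81 ± 0.758 in celastrol wells (SD, n = 3), a log2 fold change of -0.72 ± 0.15 (SE).

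F3 is shown with part of its promoter because matches to AP-1, NF-kB, EGR1 and GC box motifs fall close together there. RefSeq promoter windows on GRCh38.p14 were matched for 6 of the 9 genes, in 8 windows, and the 250 bases upstream of each start were searched on both strands. No window of THBD, PLAT or F2R was searched, so the matches do not cover THBD and PLAT, the genes with the largest differences. The AP-1 motif TGANTCA, the element bound by FOS and JUN proteins, was in 3 of the 8 windows (F3, PLAUR and TFPI2) and in 6.57% of all 35116 windows of that length. An NF-kB motif (GGAATTTCC, GGACTTTCC, GGAGTTTCC or GGGAAATCC) was in 1 of the 8, that of F3, and in 1.45% of all. The EGR1 motif GCGNGGGCG was in 3 of the 8 (8.41% of all) and the GC box GGGCGG in 5 (42.6% of all), and some EGR1 matches overlap a GC box. The KLF box CCACCC was in 2 (31.3%), the TATA box TATAAA in 1 (10.7%) and the CRE TGACGTCA in 0 (1.65%). The F3 stretch lies on the minus strand at chr1:94541816-94541992, and AP-1 matches begin 223 and 210 bases, and the NF-kB match 187 bases, upstream of the start. Those of PLAUR (chr19:43670338-43670367) and TFPI2 (chr7:93890823-93890852), also on the minus strand, surround the AP-1 matches at 186 and 87 bases. In GENCODE 29, all 30 bases of each of these stretches lie within an annotated exon, and none of the F3 stretch does. Capitals mark every motif found, 5′ to 3′. A match describes letters in a sequence and is not a measured binding site.
F3: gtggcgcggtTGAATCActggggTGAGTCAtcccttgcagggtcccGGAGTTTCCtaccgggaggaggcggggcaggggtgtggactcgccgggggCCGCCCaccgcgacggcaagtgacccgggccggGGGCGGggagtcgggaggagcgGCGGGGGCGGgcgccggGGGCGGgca
PLAUR: atcacaactccaTGAGTCAgggccgagcca
TFPI2: agtccccgtgcaTGAATCAgCCACCCctca

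Of the Kunitz-type inhibitors, TFPI2 was lower by more than TFPI. TFPI encodes the Kunitz-type inhibitor of factor Xa and of the tissue factor and factor VIIa complex (gene 7035, chromosome 2, 187464230 to 187554435). It had 53.6, 46.7 and 53.6 CPM in control replicates 1, 2 and 3 and 35.7, 44.0 and 36.6 CPM in celastrol replicates 1, 2 and 3. The closest wells, control replicate 2 and celastrol replicate 2, were only 0.083 apart on the log2 scale, and the fitted log2 fold change was -0.40 ± 0.095 (SE). TFPI2, its paralogue, is a matrix-bound Kunitz inhibitor that acts on plasmin and other proteases more than on tissue factor (gene 7980, chromosome 7, 93885396 to 93890753). TFPI2 had 58.3, 79.5 and 85.4 CPM in the control wells and 26.4, 27.2 and 21.5 CPM in the celastrol wells, a log2 fold change of -1.57 ± 0.14. The lowest control well, replicate 1, stood 1.10 above the highest celastrol well on the log2 scale.

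Per length, F3 was lower than TFPI in every well, and their ratio overlapped between the groups. It was 0.419, 0.468 and 0.400 in control and 0.410, 0.318 and 0.311 in celastrol replicates 1, 2 and 3. The ratio of TFPI2 to TFPI did not overlap, with 2.60, 4.08 and 3.81 in control and 1.77, 1.47 and 1.40 in celastrol wells.

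The genes that receive thrombin stood at opposite ends of the range of differences. THBD (gene 7056, chromosome 20, 23045633 to 23049672) encodes thrombomodulin. It had 1903, 2504 and 2256 counts in control replicates 1, 2 and 3 and 177, 254 and 175 counts in celastrol replicates 1, 2 and 3, so that no celastrol well came near any control well. The nearest pair, celastrol replicate 2 and control replicate 1, were 2.93 apart on the log2 scale. The fitted log2 fold change was -3.51 ± 0.15 (SE), or 8.78% of the control level, and it was -3.81 with both of these wells left out. As they were the highest celastrol and the lowest control well, a wider difference without them was fixed in advance. In order of log2 fold change from the lowest, THBD was number 17 and PLAT number 22 among the 15387 genes.

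F2R, which encodes the thrombin receptor PAR1 (gene 2149, chromosome 5, 76716126 to 76735770), had the smallest difference of the 9. It stood at 88.3, 92.6 and 76.0 CPM in control and 66.9, 73.2 and 62.6 CPM in celastrol wells, a log2 fold change of -0.34 ± 0.083. In TMM-scaled CPM the groups were 0.054 apart on the log2 scale at their nearest wells. In the authors' FPKM, which are scaled to the library total alone, celastrol replicate 2 (19.32) and control replicate 3 (19.29) crossed. Within a well, THBD stood at 0.534 to 0.735 of the F2R level per length in control and at 0.0628 to 0.0837 in celastrol wells.

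Of the activators of plasminogen, tissue-type was the one with the large difference. PLAT (gene 5327, chromosome 8, 42174718 to 42207565) had 4259, 7035 and 6592 counts in control replicates 1, 2 and 3 and 515, 739 and 605 in celastrol replicates 1, 2 and 3. Control replicate 1 was well below the other controls, and the coefficient of variation in controls, 25.4%, was the largest of the 9 genes. The groups were still 2.56 apart on the log2 scale at their nearest wells. The fitted log2 fold change was -3.32 ± 0.27 (SE), and -3.66 without control replicate 1 and celastrol replicate 2. Those were the lowest control and the highest celastrol well, so a wider difference without them was fixed in advance.

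Urokinase and its receptor had smaller differences and remained abundant. PLAU (gene 5328, chromosome 10, 73908832 to 73917494) had 9483, 10416 and 9094 counts in control wells and 5900, 5057 and 5673 in celastrol wells, with a log2 fold change of -0.85 ± 0.071. PLAUR, the membrane receptor that holds urokinase at the cell surface (gene 5329, chromosome 19, 43646095 to 43670169), had 7859, 7434 and 6852 counts in control wells and 5063, 5172 and 4714 in celastrol wells (-0.62 ± 0.067). Neither gene's groups overlapped. In GENCODE 29, 31.1% of the annotated exon bases of PLAU are shared with C10orf55 on the opposite strand, and no source used here says whether the counting used strand. C10orf55 itself was listed at 14 to 40 counts per well. For TFPI, TFPI2 and F2R, at most 2.95% of exon bases are shared with any 1 other gene, and for the remaining 5 genes none are.

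SERPINE2 was the 1 gene of the 9 that was higher with celastrol. It encodes protease nexin-1, a serpin that inhibits thrombin, urokinase and tissue plasminogen activator (gene 5270, chromosome 2, 223975045 to 224039286). It had 4006, 4427 and 4609 counts in control replicates 1, 2 and 3 and 6597, 5720 and 6817 in celastrol replicates 1, 2 and 3. All celastrol wells were higher, with a log2 fold change of 0.50 ± 0.075 (SE) and a gap of 0.27 between the nearest wells.

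The order of the 9 genes by level per length also differed between groups. In control wells it ran from PLAU (89.7 ± 7.44 FPKM, SD, n = 3) through PLAUR (60.4 ± 4.63), PLAT (50.1 ± 12.6), SERPINE2 (43.4 ± 2.93), TFPI2 (33.2 FPKM), F2R (21.9 ± 2.35), THBD (14.1 ± 2.01) and TFPI (9.58 ± 0.727) to F3 (4.10 ± 0.123). PLAT overlapped both of its neighbours in this order, PLAUR and SERPINE2, and no other neighbours overlapped. PLAU exceeded 96.3% of all tested genes in mean control FPKM, and F3 exceeded 47.4%. In celastrol wells SERPINE2 stood first (63.2 ± 5.48 FPKM), followed by PLAU (51.1 ± 3.69), PLAUR, F2R, TFPI2, TFPI, PLAT (5.17 ± 0.977), F3 (2.56 ± 0.347) and THBD (1.28 ± 0.293), with no overlap between neighbours. PLAT thus went from the third place to the seventh, and THBD from the seventh to the last.

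**Figure D2:**
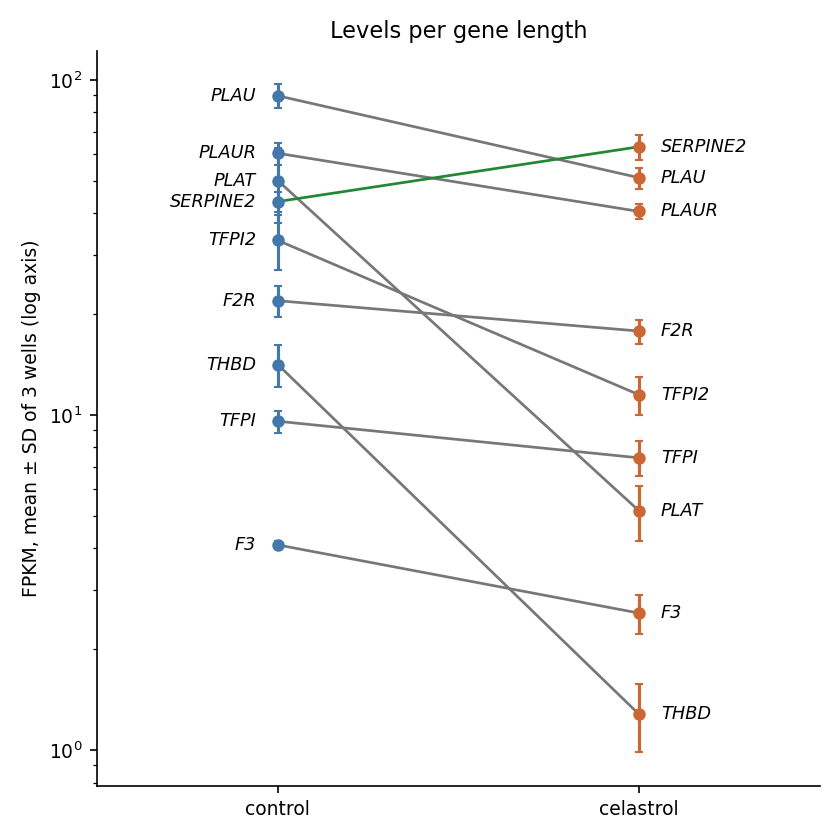
FPKM per gene on a log axis in control (blue) and celastrol (orange) wells, as mean ± SD of 3 wells, with a line joining the means of each gene. SERPINE2 (green line) ends above PLAU, and the lines of THBD and PLAT cross those of genes that were below them in control wells.

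Across the 6 wells, the nearest profiles lay further from THBD and PLAT than from PLAU and F3. Likeness was measured as the root mean square difference over 6 wells between log2 CPM values centred on each gene's mean, among 8626 named genes whose mean log2 CPM reached 4. The candidate nearest to THBD was ESM1, an endothelial proteoglycan, at 0.24, followed by CD274 (0.45) and DACT1 (0.46). The candidates nearest to PLAT were CD274 (0.34), ESM1 (0.38) and BCL2A1 (0.40). PLAU was matched to within 0.045 by FBXO27, 0.051 by DGKA and 0.057 by GCNT1, and F3 to within 0.060 by IGSF9B and 0.061 by each of MYRF and SMIM29. These distances are descriptive, since any gene with a difference of like size between the groups comes close.

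Of 35 further coagulation genes, 28 were in the table and 14 passed the filter, of which 7 fell and 3 rose by edgeR's quasi-likelihood test (50.0% and 21.4%, beside 24.8% and 23.6% of all genes). Their median log2 fold change was -0.22, against -0.00024 over all genes. This list and those below were chosen with earlier results of these data known. Their shares are therefore a description and are not read as a result about the lists. Of the genes under the filter, F2 and F5 were singled out after their values were seen. F2, which encodes prothrombin, had 0 to 10 counts per well, and F5, a cofactor of factor Xa, had 0 to 12.

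The endothelial protein C receptor PROCR, which presents protein C to thrombin on thrombomodulin, fell from 145 ± 5.88 to 88.8 ± 0.325 CPM (SD, n = 3; log2 fold change -0.70 ± 0.063 SE, edgeR adjusted p = 9.92e-08). It was the most abundant member of that pathway per length, at 94.8 to 103 FPKM in control and 62.2 to 62.4 FPKM in celastrol wells. THBD therefore stood at 0.128 to 0.157 of PROCR in control and at 0.0178 to 0.0259 in celastrol wells. SERPIND1, the thrombin inhibitor heparin cofactor II, fell from a mean of 21.4 to 4.92 CPM (-2.12 ± 0.17, adjusted p = 3.99e-08). F12, which starts the contact pathway, fell by 0.79 on the log2 scale (adjusted p = 0.000113). GAS6, a vitamin K-dependent ligand of receptor kinases, fell by 0.75 (adjusted p = 5.81e-05).

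Among those that rose, F2RL1, the protease receptor PAR2 that factor Xa and trypsin activate, went from 126 ± 14.1 to 184 ± 21.6 CPM (log2 fold change 0.55, edgeR adjusted p = 0.000104). GGCX, the vitamin K-dependent carboxylase, rose by 0.34 on the log2 scale (adjusted p = 0.00123). The third was the low-abundance F2RL2, which encodes PAR3 and is named because so few rose. It had 38, 38 and 55 counts in control and 120, 113 and 113 counts in celastrol wells (adjusted p = 0.00081). The PAR1 gene F2R was thus lower while PAR2 and PAR3 rose. In the deposited table, 8 of the 9 genes carry the KEGG term "Complement and coagulation cascades", TFPI2 being the exception.

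**Figure D3:**
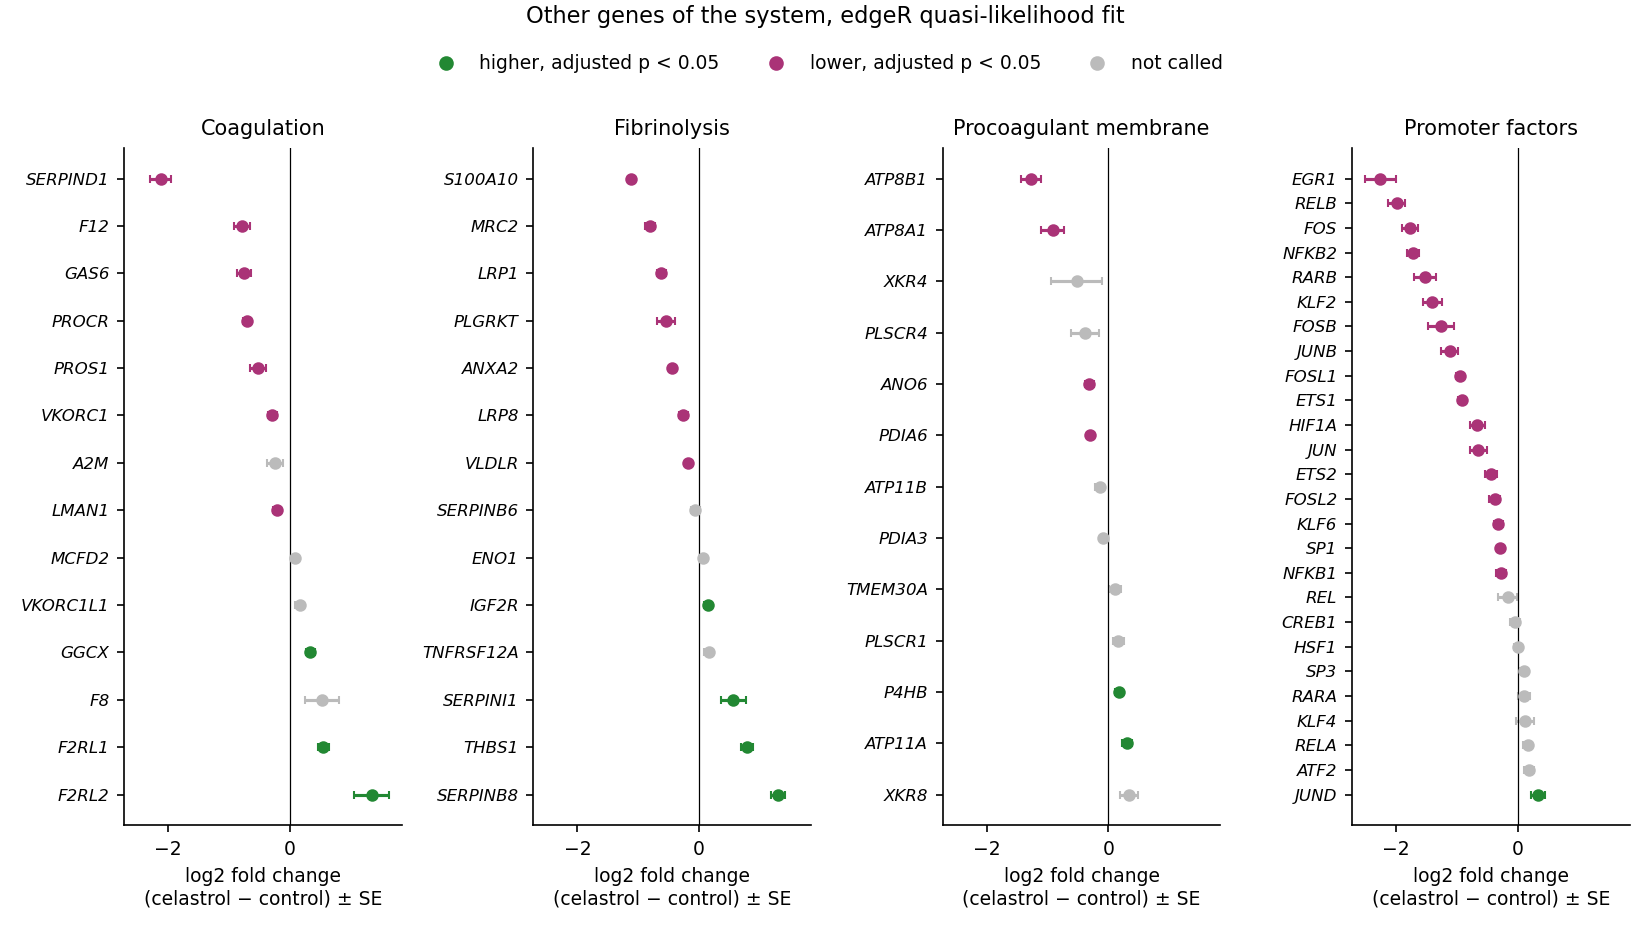
Log2 fold change (celastrol minus control) ± SE from the edgeR fit for the tested genes of 4 lists, in order of size, with green for higher and purple for lower at an adjusted p under 0.05 and grey for genes not called. SERPINB2 is left out because its celastrol wells hold at most 1 count, and not every other tested gene is drawn. SERPIND1, S100A10, ATP8B1 and EGR1 have the lowest value drawn in their list.

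Of 25 further fibrinolysis genes, 23 were in the table and 16 were tested, of which 9 fell and 4 rose (56.2% and 25%, beside 24.8% and 23.6% of all genes), with a median log2 fold change of -0.21. SERPINB2, which encodes PAI-2, had 28, 23 and 16 counts in control and 0, 1 and 1 in celastrol wells, too few for a fold, and was called lower. It is named although it is under the level set for named genes. As the list was chosen with earlier results known, its shares are a description.

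The cell-surface plasminogen receptor formed by annexin A2 and S100A10 was lower in both parts. S100A10, the subunit that binds plasminogen, fell from 210 ± 10.9 to 97.4 ± 2.89 CPM (-1.11 ± 0.064, edgeR adjusted p = 8.5e-10), and ANXA2 from a mean of 2260 to 1671 CPM (-0.44, adjusted p = 2.45e-06). MRC2, a collagen receptor that associates with the urokinase receptor, fell by 0.80 on the log2 scale (adjusted p = 4.1e-07). LRP1, an endocytic receptor that clears urokinase bound to its inhibitors, fell by 0.62 (adjusted p = 1.88e-06). SERPINB8, a serpin of the same clade as PAI-2, rose from 16.8 ± 2.88 to 41.3 ± 1.29 CPM (adjusted p = 6e-08). THBS1, a matrix protein that binds plasminogen among other ligands, rose by 0.79 (adjusted p = 4.13e-05). SERPINI1, the neuroserpin gene, which lies under the level set for named genes, rose by 0.57 (adjusted p = 0.0303). IGF2R, a receptor reported to bind plasminogen, rose by 0.14 (adjusted p = 0.038), a call lost when any celastrol well, control replicate 2 or control replicate 3 was left out, with no filter on low counts and with at least 10 CPM required in 3 wells (0.0592 to 0.189). Without celastrol replicate 1 or control replicate 2, 2 fibrinolysis genes were called higher instead of 4.

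Per length, the activator PLAU stood above SERPINE2, which encodes an inhibitor of urokinase, in every control well and below it in every celastrol well. Other inhibitors are not in this ratio, so it does not describe the whole balance of urokinase and its inhibitors. The ratio of PLAU to SERPINE2 was 1.84 to 2.2 in control and 0.774 to 0.832 in celastrol wells. PLAT stood at 0.407, 0.611 and 0.656 of PLAU in control and at 0.0790, 0.132 and 0.0965 in celastrol wells. The ratio of PLAU to PLAUR differed less, at 1.37 to 1.59 in control and 1.11 to 1.36 in celastrol wells. Such ratios show unequal differences between genes and do not depend on how libraries are scaled.

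**Figure D4:**
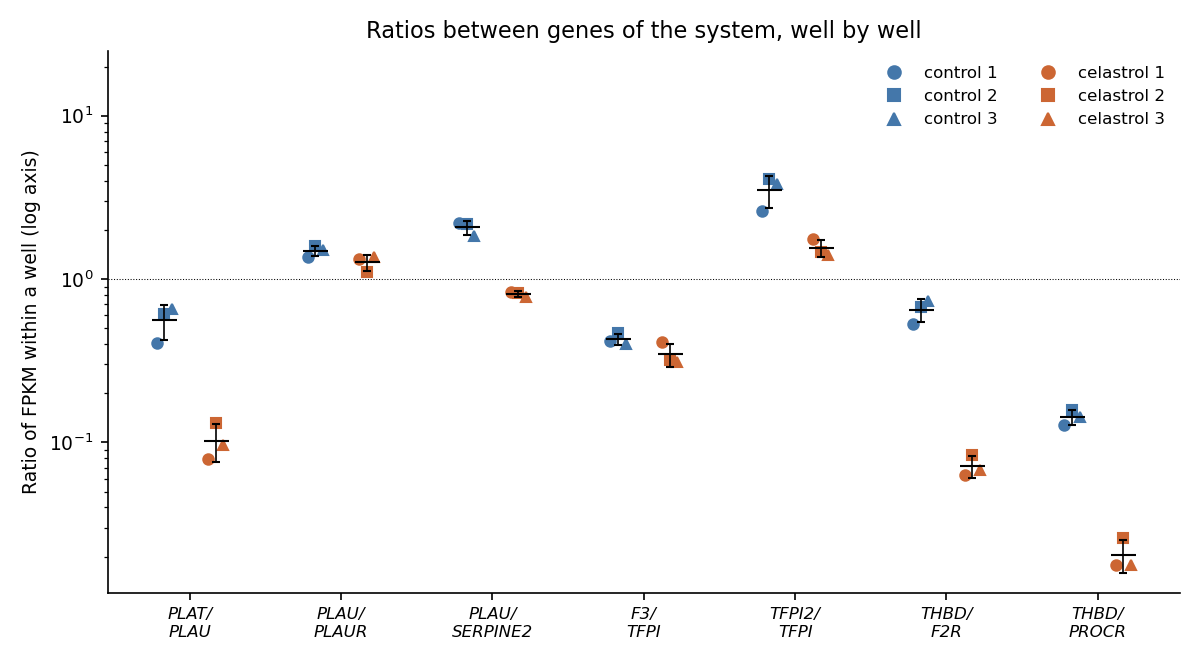
Ratios of FPKM between pairs of genes within each well, on a log axis with a dotted line at equal levels, in control (blue) and celastrol (orange) wells. Black bars are the mean ± SD of 3 wells. PLAU to SERPINE2 passes below the line with celastrol, and F3 to TFPI overlaps between groups.

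Genes for the membrane surface on which tissue factor works were near the background. Clotting complexes assemble on exposed phosphatidylserine, which scramblases bring out and flippases take back, and protein disulfide isomerases can alter tissue factor's activity. Of 16 such genes, 14 were tested, of which 4 fell and 3 rose (28.6% and 21.4%), with a median log2 fold change of -0.11. The scramblase gene ANO6 fell by 0.31 on the log2 scale (edgeR adjusted p = 0.00115) and the isomerase gene PDIA6 by 0.30 (adjusted p = 0.000497). The flippase genes went both ways. ATP8B1 fell by 1.27 (adjusted p = 9.94e-06) and ATP8A1 by 0.91 (adjusted p = 0.000653), while ATP11A rose by 0.31 (adjusted p = 0.00372). P4HB, the best known isomerase, rose by 0.17 (adjusted p = 0.0169). The P4HB call was lost on leaving out celastrol replicate 2 or 3, or control replicate 2 (0.0514 to 0.0998). Without control replicate 2, 1 gene of this list was called higher instead of 3, and with library size alone 5 were.

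Of 26 genes for transcription factors known to act at promoters of clotting or fibrinolysis genes, all were tested, 17 fell and 1 rose (65.4% and 3.85%, beside 24.8% and 23.6% of all genes). Their median log2 fold change was -0.41. This list too was chosen with earlier results known, so its shares are a description. The immediate early factor EGR1 fell from 301 ± 93.6 to 63.0 ± 5.38 CPM (-2.26 ± 0.26, edgeR adjusted p = 0.00206) and FOS, a subunit of AP-1, from 21.8 ± 2.59 to 6.37 ± 0.520 CPM (-1.77, adjusted p = 1.54e-08). Other FOS and JUN genes, named after their values were seen, were more abundant. FOSL1 fell from 743 ± 68.7 to 386 ± 30.1 CPM (-0.95, adjusted p = 2.73e-08) and JUN from 296 ± 64.0 to 189 ± 8.57 CPM (-0.65, adjusted p = 0.00593). JUNB fell by 1.12 (adjusted p = 0.000109). Of the NF-kB subunits, RELB fell by 1.99 (adjusted p = 8.18e-09) and NFKB2 fell by 1.72 (adjusted p = 1.47e-08), while RELA, also named after its values were seen, had 73.0 ± 0.997 CPM in control and 81.7 ± 3.96 CPM in celastrol wells (adjusted p = 0.0578). KLF2, an inducer of thrombomodulin in endothelium, and KLF4, its relative, were singled out after their values were seen. KLF2 fell from 14.7 ± 1.18 to 5.55 ± 1.16 CPM (-1.40, adjusted p = 1.39e-06), and KLF4 stood at 26.2 ± 5.46 and 28.3 ± 4.51 CPM (adjusted p = 0.559). The factor that rose was JUND, by 0.33 (adjusted p = 0.0249), a call lost, so that 0 rose, on leaving out celastrol replicate 1 or 3, or control replicate 2 or 3 (0.0663 to 0.131). Whether these factors bear on the 9 genes was not tested.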

How the data were processed

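Poly(A) RNA of 6 wells was read as paired 150-base ends from strand-marking libraries, per the labels' protocols. The submitters' processing notes name hg38, HISAT2 2.2.1, cutadapt 1.9, StringTie 2.1.6, edgeR and DESeq2, without saying what each was used for. The deposited counts are whole reads per gene, not normalized. The authors' FPKM values follow from these counts, a gene length and the library total in all 20198 genes with counts in 2 or more wells (within 1e-06). A count of 0 allows up to 0.078 CPM, for counting error only.

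Genes were kept with filterByExpr, scaled by TMM and compared by edgeR 4.0.16 (R 4.3.3, robust quasi-likelihood test, Benjamini-Hochberg adjustment over 15387 genes), without a replicate block. An SE is the size of the log2 fold change over the root of F. The procedure was tested on simulated data. The members and the gene lists were chosen with earlier results of these data known. Named genes are the 9 members, PROCR and ANXA2, up to 4 called genes per direction and list whose log2 CPM reached 2, and the 3 nearest profiles of 4 members; others are marked. Some genes the lists count are not reported here by name. Alternatives used DESeq2 1.42.0, limma 3.58.1, other scalings and filters, and wells left out. RefSeq (GRCh38.p14) and GENCODE 29 gave positions and sequences.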

Additional observations from a re-analysis of the deposited data

How the results depend on the processing

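No log2 fold change of the 9 genes changed sign under any of the 15 or 16 alternatives each. With limma on log2(FPKM + 1), a pseudocount that shrinks low genes, THBD was at -2.73 and F3 at -0.52. With celastrol replicate 2 and control replicate 1 both left out, which was added after seeing the data, THBD was at -3.81 and PLAT at -3.66. For both genes these wells were the nearest to the other group, so the direction of this change was fixed in advance. Leaving out 1 well at a time gave THBD -3.71 to -3.41, PLAT -3.51 to -3.17 and F3 -0.79 to -0.62. F3 has no value with at least 10 CPM required in 3 wells. Fibrinolysis genes called higher were 2 with that filter and 2 to 5 without 1 well. Membrane genes called higher were 5 with library size alone or by limma on log2 FPKM with either pseudocount, and 1 to 3 without 1 well. Promoter factors called higher were 3 with library size alone and by limma with either pseudocount, 2 by DESeq2 and with the replicate block, and 0 to 2 by edgeR without 1 well, where the settings with 0 had 1 or 2 at an unadjusted p under 0.05. The block, which takes the number in a title as a factor, called 3831 genes higher and 3928 lower, against 3634 and 3815, and moved no other count by over 1.5 times. Deviations of equally numbered wells correlated at 0.034 to 0.058 across genes, so the numbers were not taken to pair wells, although each well correlated best with its own number.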
